A study of Mus musculus with 26 samples.

Results

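The stretch of mouse chromosome 6 around Pparg held 89 of the 67815 sites of the series. They were chosen by position: every peak of 15 ChIP-seq lists whose centre lay from 115000000 to 115800000 on chromosome 6 in mm8, an 800 kb window, was kept, and overlapping 200 bp peaks were joined into sites. The window held 354 of 230453 peaks. It was chosen with MED1 results of these lists known, so its counts and ranks are a description and carry no test. The series holds 26 samples of 3T3-L1 cells, a mouse fibroblast line that becomes fat cells in culture. The cells were mature adipocytes, differentiated with dexamethasone, insulin and 3-isobutyl-1-methylxanthine, and were left untreated or given 1 µM rosiglitazone in DMSO. The labels do not say whether untreated cells received DMSO. The lists covered MED1 with 2 replicates in each condition, then CBP, p300 and NCOR with 1 library in each condition. A single untreated library covered each of 5 transcription factors, CEBPa, CEBPb, ATF2, JUND and FOSL2. The 10 GRO-seq libraries and the input were not used, so no transcript level stands beside these sites, and markers of the fat cell were not checked.

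Pparg encodes PPARγ, the nuclear receptor that drives fat cell differentiation and is bound by rosiglitazone. C/EBP factors and PPARγ are known to sustain each other's expression in the mature fat cell. MED1 is a Mediator subunit that binds nuclear receptors, CBP and p300 acetylate histones, and the corepressor NCOR is carried by nuclear receptors that lack an activating ligand. JUND and FOSL2 form AP-1 dimers, to which ATF2 is related. In the GRCm38.p6 gene table, used for order alone, Pparg follows Syn2, a synaptic vesicle protein gene, and Timp4, a metalloproteinase inhibitor gene. No annotation in the files' build was used, so no site is placed in a gene, exon, intron or promoter, and none is assigned to Pparg.

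RefSeq gives Pparg 3 starts in GRCm38.p6. The 250 bases before each were searched on both strands for letters of the factors mapped here: TTGCNNAA for C/EBP, TGANTCA for AP-1 and TGACGTCA for the cyclic AMP response element that ATF2 binds. The bases before the first start were 82.4% G or C, those before the second 63.6% and those before the third 40.8%. The third held 2 C/EBP matches, beginning 215 and 16 bases before the start, and neither of the others held one. No AP-1 or response element letters were found before any of the 3, which says only that these letters are not in these windows. Of 32841 such windows in the table, 9.57% held the C/EBP letters, 6.75% the AP-1 letters and 1.55% the response element. The first and the third are shown because they differ most in base composition and because the third carries the C/EBP letters, in capitals. Their GRCm38.p6 positions cannot be set against the mm8 positions of the peaks.
Pparg, the first start, chr6:115360894-115361143, plus strand: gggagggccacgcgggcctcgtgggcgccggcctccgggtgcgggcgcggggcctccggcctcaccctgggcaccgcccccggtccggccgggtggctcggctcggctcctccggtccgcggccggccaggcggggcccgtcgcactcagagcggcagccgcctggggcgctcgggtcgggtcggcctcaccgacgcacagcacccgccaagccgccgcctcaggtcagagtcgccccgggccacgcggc
Pparg, the third start, chr6:115421816-115422065, plus strand: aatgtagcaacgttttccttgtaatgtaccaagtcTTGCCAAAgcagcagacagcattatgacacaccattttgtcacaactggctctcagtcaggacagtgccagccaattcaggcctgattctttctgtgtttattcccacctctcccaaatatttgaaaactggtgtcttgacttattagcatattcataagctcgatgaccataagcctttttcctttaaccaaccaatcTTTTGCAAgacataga

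Few stretches of this length were as densely occupied. Cut into 3253 whole bins of 800 kb aligned to the window, the genome had a median of 14 sites and 40 peaks per bin, against 89 sites and 354 peaks here. There were more sites in 26 bins and more peaks in 25. The window held 5 of the 336 sites found in all 15 lists, and 2 bins held more. Sites in at least 10 lists were more numerous in 37 bins. Of the 89 sites 5.62% were in all 15 lists, where the share over all sites was 0.495%. With those 5 included, 11.2% were in at least 10 lists, against 7.24%. At 10, 11, 12, 13 and 14 lists the shares were 2.25%, 1.12%, 0.00%, 1.12% and 1.12%, against 2.06%, 1.60%, 1.27%, 1.07% and 0.74%. At the other end 29 sites (32.6%) were in 1 list, close to the 34.7% of all sites. The share of the locus stood further from that of the series for sites in every list than for sites in 1.

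**Figure D1:**
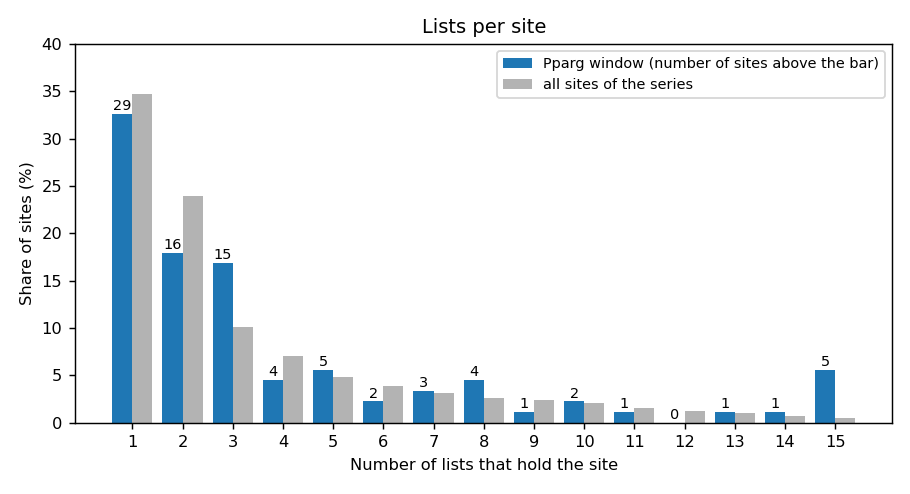
Share of sites (y axis, %) by the number of lists that hold them (x axis), for the 89 sites of the Pparg window (blue, with the number of sites above each bar) and all 67815 sites (grey). The 5 window sites in all 15 lists made up 5.62%, against 0.50% of all sites.

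Each list placed 0.107% to 0.365% of its peaks in the window, where a median bin held at most 0.022%. The share exceeded the 99th percentile of the bins for both untreated MED1 lists, treated MED1 replicate 2, JUND and FOSL2 alone. The untreated MED1 lists placed the largest shares, 0.336% (95% Wilson interval 0.215 to 0.524, 19 of 5660 peaks) in replicate 1 and 0.365% (0.228 to 0.584, 17 of 4656) in replicate 2. The rosiglitazone MED1 lists placed 0.174% (0.103 to 0.291, 14 of 8069) and 0.239% (0.149 to 0.383, 17 of 7104). Both treated shares lay below both untreated ones, with overlapping intervals. CBP went from 25 peaks (0.163%) untreated to 14 (0.147%) treated, p300 from 16 (0.107%) to 21 (0.153%) and NCOR from 35 (0.139%) to 36 (0.126%). The untreated p300 share was the lowest of the 15 lists, and 188 bins held more of its peaks than the window. CEBPa had 17 peaks, CEBPb 21, ATF2 30, JUND 35 and FOSL2 37. The intervals cover counting error only, read depth is unknown, and the labels do not tell whether the 2 MED1 replicates were separate cultures.

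**Figure D2:**
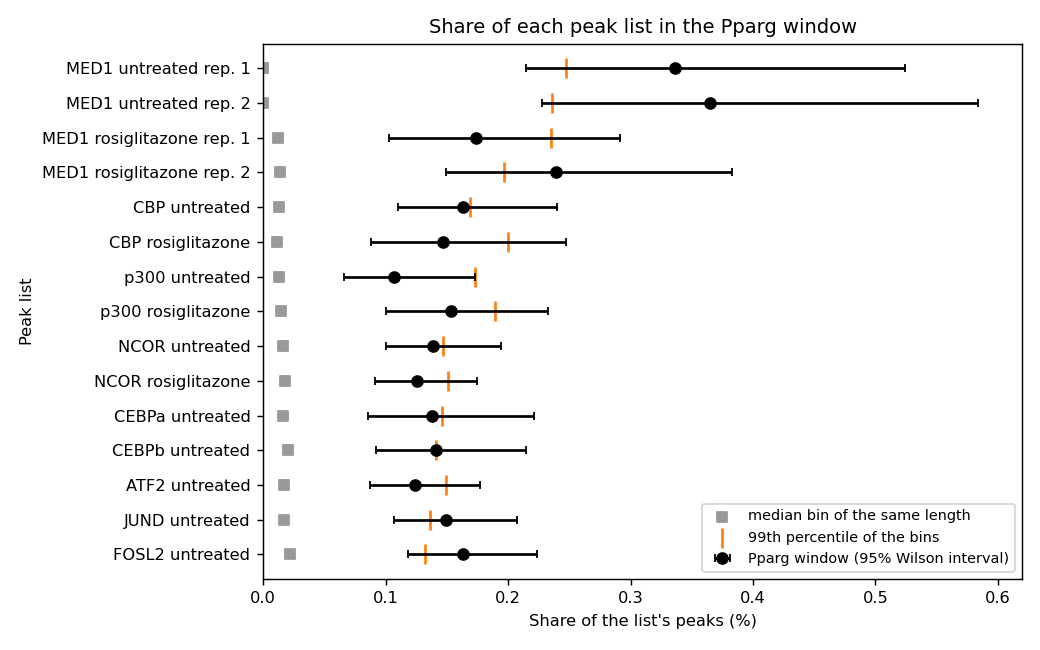
Share of each list's peaks inside the Pparg window (x axis, %; black points, with 95% Wilson intervals), beside the median bin of the same length (grey squares) and the 99th percentile of the bins (orange ticks), for 15 lists (y axis). Every window share lies above its median bin, and the untreated MED1 lists, at 0.336% and 0.365%, lie furthest to the right.

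The sites formed 11 clusters when gaps of over 12.5 kb ended a cluster. The longest, chr6:115350761-115521508, ran over 170.7 kb and held 42 of the 89 sites, 200 of the 354 peaks, 7 of the 10 sites in at least 10 lists and 4 of the 5 in all 15. A second centre, chr6:115191187-115207907, packed 7 sites and 43 peaks into 16.7 kb. The other 40 sites and 111 peaks lay outside these clusters, among them 15 sites with 30 peaks at chr6:115278799-115337717 and 6 sites with 33 peaks at chr6:115233633-115256484. The first 100 kb of the window held 2 sites and the last 100 kb held 5. The clusters depend on the gap: at 5000 bp there were 35 of them, none with more than 8 sites, and at 25000 bp there were 9, the largest with 63 sites over 287.9 kb. The site just inside the lower border lay 3.6 kb from it and was in 1 list (NCOR untreated), and the nearest outside, 26.4 kb away, was in 3. At the upper border the nearest site inside lay 20.2 kb away and the nearest outside 6.4 kb away, each in 1 list.

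**Figure D3:**
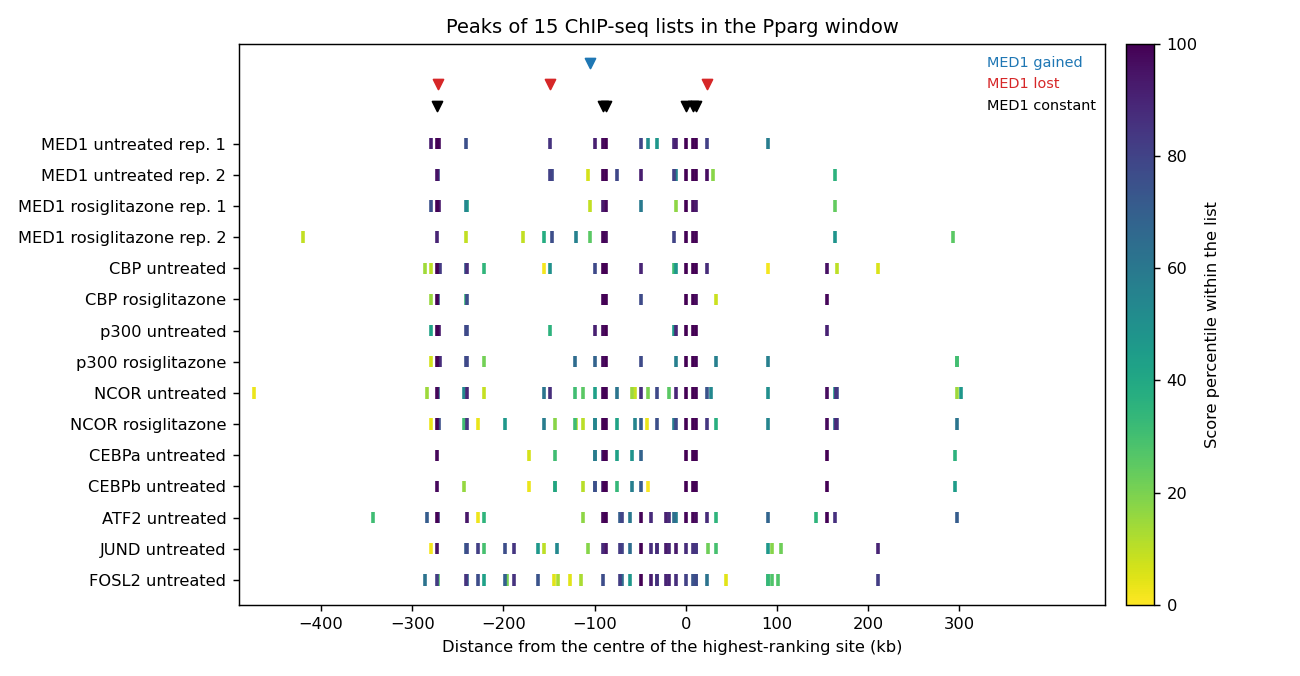
Peaks of the 15 lists (y axis) along the Pparg window, by distance from the highest-ranking site (x axis, kb). Colour gives the score percentile within the list, from 0 (lowest) to 100 (highest), and triangles mark the 6 MED1 constant, 3 lost and 1 gained sites. Dark ticks line up through the lists at -272.9, near -90 and from 0.0 to 11.6 kb.

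The 6 MED1 constant sites, held by all 4 MED1 lists, took 4 to 6 of the 6 highest peaks of the window in 13 lists, but 2 for JUND and 0 for FOSL2. Each was also in both lists of CBP, of p300 and of NCOR and in those of CEBPa, CEBPb, ATF2 and JUND, and 5 of the 6 held FOSL2. The same shares over the 1244 constant sites of the series were not computed, so this is not shown to be particular to the window. Constant sites made up 18.2% of the 33 sites with MED1 here, where the background over all 15620 sites with MED1 was 7.96%. The constant sites of this window were known when it was chosen, so this share lends no support to a difference. Each peak has a score set by the authors. It ranks peaks within a list, and ranks from lists of different length do not show a change.

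The highest site, chr6:115477148-115477439, is the zero point of the distances given here. Its MED1 peak ranked 1 of 5660 and 1 of 4656 in the untreated lists, scoring 19.98 and 18.00. After rosiglitazone it ranked 10 of 8069 (15.87) and 25 of 7104 (15.02). It was the top p300 peak of untreated cells (17.81) and ranked 5 of 13746 after treatment (15.25). CEBPa ranked it 2 of 12332 (9.46) and CEBPb 3 of 14937 (10.60), while JUND placed it at 2947 of 23509 (4.15) and FOSL2 at 4336 of 22716 (3.83). It was the highest site of the window in each of the 4 MED1, both p300 and both C/EBP lists. The AP-1 subunits were listed but ranked well below their own strongest peaks. Their percentiles of 87.3 and 80.5 lay above the medians of 76.4 and 62.0 over the 336 sites in all 15 lists.

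Downstream in coordinate order, 7.9 and 11.6 kb away, lay chr6:115485064-115485367 and chr6:115488797-115489078. The first led the window for the corepressor: NCOR ranked it 13 of 25136 untreated (15.05) and 2 of 28491 after rosiglitazone (22.62). For MED1 it ranked 5 and 2 in the untreated lists (14.35 and 11.74) and 320 and 59 in the treated ones (6.31 and 11.68). The second ranked 7 and 4 untreated (13.22 and 11.18) and 548 and 53 treated (5.03 and 11.92). Both treated lists held these peaks, but rosiglitazone replicate 1 ranked them lower than replicate 2 did. CEBPa ranked them 8 and 36 of 12332.

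The site chr6:115204292-115204561, at -272.9 kb, also ranked high for p300, at 3 of 15007 untreated (14.77) and 8 of 13746 treated (13.67). CBP ranked it 4 of 15383 untreated (14.95) and 4 of 9515 treated (11.22), and ATF2 ranked it 31 of 24192 (11.48). CEBPa placed it at 203 and CEBPb at 305, below the 3 sites just described. MED1 replicates differed here: replicate 1 ranked it 3 untreated and 11 treated (17.73 and 15.44), and replicate 2 ranked it 199 and 672 (4.17 and 5.01). It was the highest site of the window for CBP in both conditions and for ATF2. It had higher JUND and FOSL2 scores, 6.14 and 4.15, than any other constant site.

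Near -90 kb lay the other constant pair, chr6:115386660-115386902 and chr6:115390110-115390376. The first ranked 120 and 35 for MED1 untreated (6.54 and 7.39) and 548 and 107 treated (5.03 and 10.01), and was the weakest constant site for CEBPa, at 1668 of 12332 (3.11). The second ranked 14 and 7 untreated (10.74 and 9.57) and 172 and 179 treated (7.85 and 8.58). It was among the strongest C/EBP peaks of the series, at 7 for CEBPa (7.65) and 6 for CEBPb (8.57), ranked 47 for ATF2 (10.84), and was the constant site without FOSL2. Between them stood chr6:115387361-115387616, picked out after its values were seen, with CEBPa at 77 and CEBPb at 73 but no p300 and MED1 in rosiglitazone replicate 2 alone (rank 205, score 8.10).

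**Figure D4:**
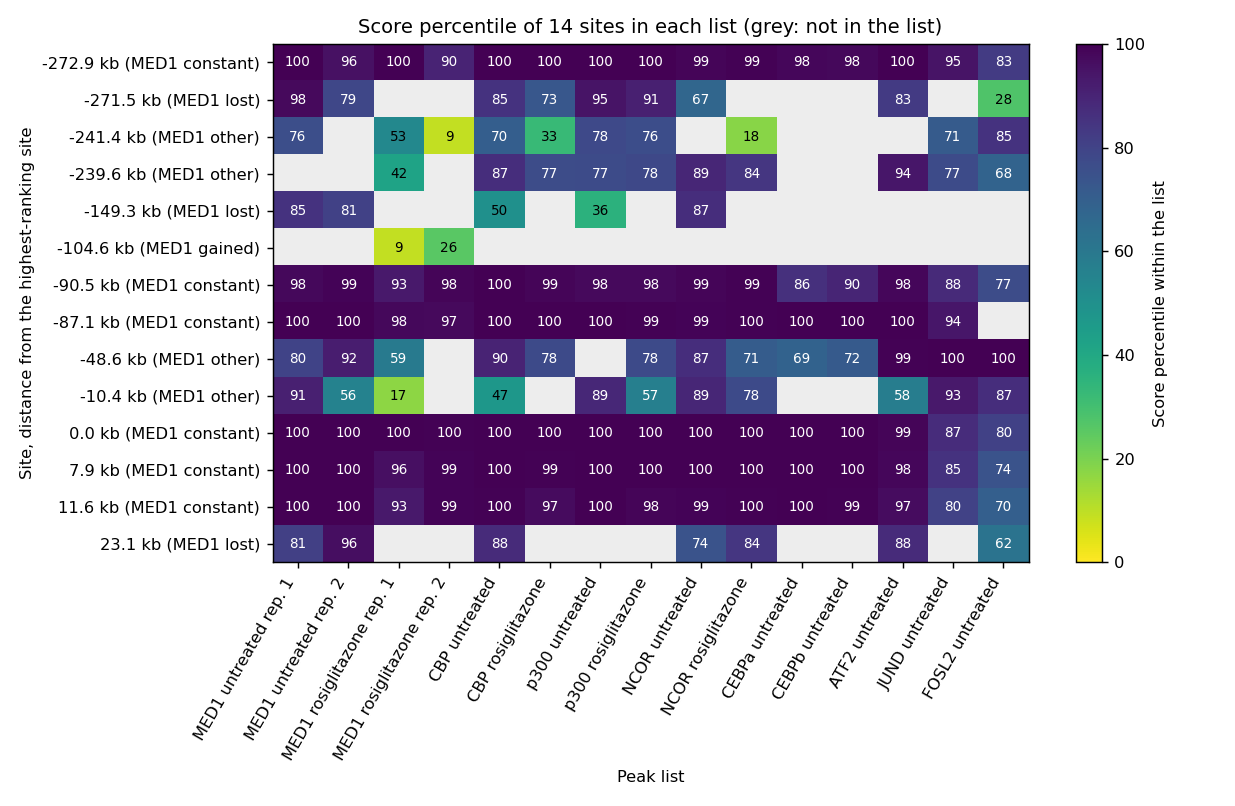
Score percentile within each list (colour and number, rounded to a whole percentile) of the 14 sites that were in at least 10 lists or were MED1 constant, lost or gained. Rows are sites by distance from the highest one (kb), columns are the 15 lists, grey marks absence, and "other" marks sites in 1 to 3 MED1 lists that were neither lost nor gained. The 6 constant rows are dark, lightest at FOSL2 where it is present, and their JUND values run from 80.3 to 94.9.

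The 5 sites in all 15 lists were strong even among such sites. By mean score percentile over the 15 lists, they ranked 5, 10, 13, 24 and 33 of the 336. Their median percentile was 99.9 in both untreated MED1 lists, where all 336 had medians of 85.2 and 82.4. JUND and FOSL2 stood lower, with medians of 87.3 and 76.7, and did so over all 336 too (76.4 and 62.0). Peak centres were also compared at the 6 constant sites, 1 of which was not in all 15 lists. Measured from the midpoint of the CEBPa and CEBPb centres, the median distance for p300 was 14.8 bp untreated and 5.8 bp after rosiglitazone. The p300 offsets ran from -24.0 to 15.5 bp untreated and from -25.5 to 5.5 bp treated. With 1 library per condition, no shift is shown. For CBP the median distance was 11.2 and 8.0 bp. Over the 336 sites these medians were 23.5 and 22.0 bp for p300 and 23.5 and 21.5 bp for CBP. JUND had 51.0 bp (36.0 bp over the 336). The 4 MED1 lists had 18.2 to 34.2 bp (30.0 to 36.2 bp) and FOSL2 34.0 bp (35.2 bp), near the series. MED1 centres lay 23.0 to 78.0 bp to 1 side of the C/EBP midpoint at the highest site, in each of the 4 lists, and 52.0 to 101.0 bp to the same side at the 7.9 kb site. At the other 4 constant sites MED1 offsets ran from -37.5 to 31.0 bp, and at none of them did all 4 lists lie to that side.

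MED1 was lost at 3 sites, in both untreated lists and neither treated one. That was 9.09% of the 33 sites with MED1, where the background was 1.48%. It was gained at 1 site, 3.03%, where the background was 4.83%. No bin of the 3253 held more than 3 lost sites. The lost sites of this window were known when it was chosen, so these shares lend no support to a difference. Counting every uneven pattern, 14 sites were in more untreated than treated MED1 lists and 11 in more treated ones, 42.4% and 33.3%, where the backgrounds were 25.1% and 52.8%. Of these 11, 7 were in rosiglitazone replicate 2 alone. MED1 was in a single list at 16 of the 33 sites, 48.5%, where the background was 62.4%. Leaving out a MED1 list loosens the definition of the class it bears on. Without untreated replicate 1 or 2 there were 7 lost and 2 gained sites, without rosiglitazone replicate 1 there were 5 and 8, and without rosiglitazone replicate 2 there were 4 and 2.

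The lost site chr6:115205647-115205891 lay at -271.5 kb, beside the -272.9 kb constant site. Its MED1 scores were 6.31 and 2.27 in untreated replicates 1 and 2, ranks 131 and 939. CBP (3.41 untreated, 2.44 treated) and p300 (4.74 and 3.95) held it in both conditions, NCOR before treatment alone (2.21), and ATF2 (3.01) and FOSL2 (1.42) were present. The nearest treated MED1 peaks lay 1045 and 1349 bp away. A coactivator pair thus remained listed where MED1 did not.

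At chr6:115327862-115328139 (-149.3 kb) MED1 had scores of 3.01 and 2.37, ranks 820 and 852. CBP (1.77), p300 (1.49) and NCOR (3.59) were listed there in untreated cells and none of them after rosiglitazone, and no transcription factor was listed. The third lost site, chr6:115500245-115500527 (23.1 kb), had MED1 scores of 2.70 and 4.55, ranks 1036 and 166. CBP (3.65) was listed before treatment alone, NCOR in both conditions (2.56 and 3.35), and ATF2 (3.40) and FOSL2 (2.41) were present. None of the 3 lost sites held CEBPa, CEBPb or JUND, which was so at 16.9% of the 231 lost sites of the series.

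The gained site, chr6:115372541-115372807 (-104.6 kb), was weak and held nothing but MED1. Its scores were 1.11 and 1.67 in the treated lists, ranks 7026 of 8069 and 4789 of 7104, near the lowest scores of 1.02 and 1.43. It was not gained when the MED1 lists were cut to their 4656 highest peaks. At that length the untreated lists had 19 and 17 peaks in the window and the treated ones 10 and 12. Lost sites then numbered 4 (14.3% of 28, background 2.86%), the added one being chr6:115466711-115466977 at -10.4 kb, whose treated MED1 peak had a score of 1.19.

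Few sites followed the replicate number of the MED1 lists. Both replicate 1 lists and neither of replicate 2 held 2 sites (6.06%, background 8.29%), and the reverse was seen at 0 sites (background 2.98%). Within replicate 1, 8 sites were untreated-only and 3 rosi-only (36.4% and 13.6% of 22, backgrounds 21.3% and 44.9%). Within replicate 2 there were 9 of each (34.6% of 26, backgrounds 25.5% and 51.1%). In both, untreated-only sites took a larger share than over the series and rosi-only sites a smaller one. Scores came in whole steps, whose meaning the labels do not give. The inverse of the step was 4.2 for rosiglitazone replicate 2 and 10.6 to 13.3 for the other MED1 lists, and its lowest score was 1.43 against 1.02 to 1.05. Peak names of that list carry 1h and those of the treated NCOR list 30m, so treatment times may differ. The part of these differences in the lost and gained calls was not tested.

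The counts of the acetyltransferases CBP and p300 pointed in different directions in the window. CBP was untreated-only at 12 of its 26 sites and rosi-only at 1 (46.2% and 3.85%, backgrounds 43.9% and 9.33%), so its untreated-only share was near the background. p300 was rosi-only at 8 of 24 sites and untreated-only at 3 (33.3% and 12.5%, backgrounds 22% and 28.9%), the reverse order of the series, and in both conditions at 13 (54.2%, background 49.1%). With both lists of a factor cut to the shorter, p300 had 16 untreated and 21 treated peaks and CBP 17 and 14, and CBP was then untreated-only at 5 sites and rosi-only at 2. NCOR was at 51.7% of the 89 sites (background 50.8%). It was rosi-only at 11, untreated-only at 10 and in both conditions at 25 of 46 sites, with shares of 23.9%, 21.7% and 54.3% near backgrounds of 27.3%, 17.6% and 55.1%. At equal length NCOR was rosi-only at 7 sites and untreated-only at 11, which turns their order. Each has 1 list per condition, so these counts compare libraries.

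**Figure D5:**
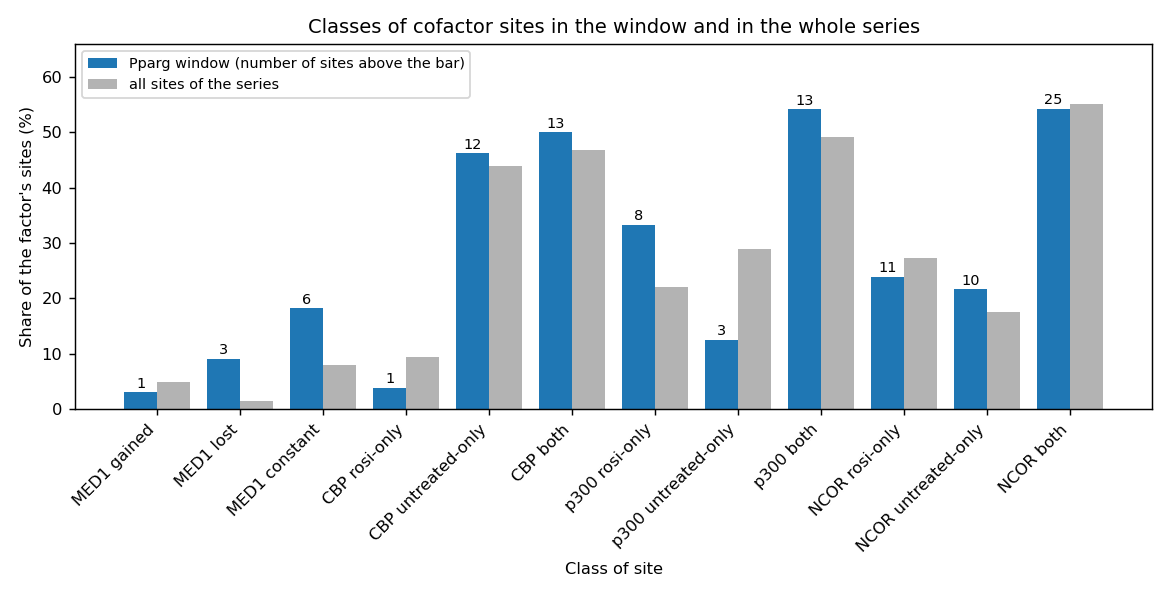
Share of each factor's sites (y axis, %) by class (x axis) in the Pparg window (blue, number of sites above the bar) and in the whole series (grey). The p300 bars show 8 rosi-only against 3 untreated-only sites in the window, while over the series the untreated-only bar is the higher.

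Of the 8 sites where p300 was rosi-only, 6 held no MED1 in any list (75%, background 66.2%). The strongest by p300 score of those 6, named after its values were seen, was chr6:115207672-115207907 (-269.5 kb), where p300 had a score of 3.34 (rank 1831 of 13746) after treatment and CBP 3.18 (rank 2578 of 15383) before it, with no other factor. CBP was untreated-only at 3 of the 8 (37.5%, background 15.5%), rosi-only at 1 (12.5%, background 7.24%) and listed in both conditions at 1 (12.5%, background 11.3%). Of the untreated-only CBP peaks, those at -220.9 and 90.1 kb were weak, with scores of 1.47 and 1.00 (ranks 9792 and 14835 of 15383). Both ranked past the 9515 peaks that the treated CBP list held. The site rosi-only for both, also named afterwards, chr6:115510063-115510384 (32.9 kb), was also rosi-only for NCOR, with scores of 1.88 for p300, 1.13 for CBP and 1.49 for NCOR. The 2 acetyltransferases were both listed at 20 sites. Both were untreated-only at 2 of them, at -149.3 and -12.9 kb (10%, background 12.8%), and both were in both conditions at 10, which include the 6 constant ones (50%, background 45.4%).

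The transcription factors, mapped in untreated cells alone, were each listed at 19.1% to 41.6% of the 89 sites. CEBPa was at 19.1% of the 89 sites (background 18.2%), CEBPb at 23.6% (22%), ATF2 at 33.7% (35.5%), JUND at 39.3% (34.6%) and FOSL2 at 41.6% (33.5%). MED1 itself was at 33 of the 89 sites in at least 1 list (37.1%, background 23%). CEBPa and CEBPb were both at 17 of the 21 sites with either (81%, background 71.5%), and JUND and FOSL2 at 26 of 46 (56.5%, background 51.2%). All 5 factors were together at 6 sites, 6.74%, where the background was 2.83%, and at 5 with an overlap of at least 50%. The 6 include 5 of the MED1 constant sites. C/EBP and AP-1 members shared a joined site at 7 of the 89 sites, 7.87% where the background was 7.81%. Each of the 7 held MED1 in at least 1 list (background 56.5%). Among the 7 are the 6 MED1 constant sites, known when the window was chosen, so this lends no support to a difference. At 1 of the 7, at -48.6 kb, the C/EBP peaks overlapped no ATF2, JUND or FOSL2 peak and were joined by chaining. Of 39 sites with JUND or FOSL2 and no C/EBP, 9 held MED1 (23.1%, background 14.8%) and 13 held MED1, CBP or p300 (33.3%, background 32.7%). Of 14 with C/EBP and no JUND or FOSL2, 3 held MED1 (21.4%, background 21.4%) and 4 held MED1, CBP or p300 (28.6%, background 39.6%). MED1 was listed at 14 of the 29 sites with none of these 4 factors (48.3%, background 24.8%). Most of these 14 were in a single MED1 list. Those at -420.3 and -178.8 kb had the lowest score of rosiglitazone replicate 2, 1.43.

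The strongest AP-1 place was chr6:115428446-115428925, at -48.6 kb. JUND ranked it 9 of 23509 (15.31), FOSL2 24 of 22716 (20.01) and ATF2 140 of 24192 (8.53), while CEBPa ranked it 3830 and CEBPb 4192. The C/EBP peaks ended by 115428652 and those of ATF2, JUND and FOSL2 began from 115428691, so they did not overlap. MED1 was in both untreated lists (2.63 and 3.41) and in treated replicate 1 (1.96), and p300 was listed after rosiglitazone alone (2.67). It stood in the stretch between the -87.1 kb and the highest site, a stretch picked out after its values were seen. There 11 of 18 sites held JUND or FOSL2 (background 45%) and 4 held a C/EBP factor, near the background of 23.4%. ATF2, JUND and FOSL2 without C/EBP were at 7 of those 18 sites. Over the window this combination was at 11 sites, 12.4%, where it was at 6.76% of all sites. MED1 was at 3 of the 11, and its share over all sites of this combination was not computed.

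The remaining sites in at least 10 lists held AP-1 without C/EBP. At chr6:115235652-115236096 (-241.4 kb) FOSL2 scored 4.59 and JUND 2.60, and CBP and p300 were listed in both conditions. MED1 was in untreated replicate 1 (2.40) and both treated lists (1.79 and 1.43). The 1.43 peak, at the lowest score of its list, overlapped no untreated MED1, JUND or FOSL2 peak and was joined by chaining. With an overlap of at least 50% this site was in 9 lists. At chr6:115237539-115237844 (-239.6 kb) ATF2 scored 4.43, NCOR 3.94 untreated and 3.35 treated, and MED1 was in treated replicate 1 alone (1.54). The -10.4 kb site held JUND at 5.42 and FOSL2 at 4.92, with MED1 at 3.83 and 1.61 untreated.

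The reverse case, strong C/EBP without MED1 or AP-1, was chr6:115632320-115632573 at 155.2 kb, also picked out after its values were seen. CEBPa ranked it 27 of 12332 (6.72), CEBPb 45 of 14937 (7.40) and ATF2 143 of 24192 (8.47). CBP (5.18 untreated, 5.59 treated) and NCOR (6.01 and 6.79) held it in both conditions and p300 before treatment (3.97), yet no MED1 list did. Its C/EBP ranks lay among those of the constant sites, so a high C/EBP rank and MED1 did not go together at every site of the locus.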

How the data were processed

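The submitters' processing notes name Bowtie, bedtools and HOMER and the build mm8. For versions, the peak threshold and any use of input: not given in the sources used here. Each library has 1 list from the authors, with a score for each 200 bp peak. What that score is divided by is not stated, so scores rank peaks within a list, and depth is unknown.

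All 15 lists were joined, chaining peaks with centres at most 199 bp apart (an overlap of 1 bp or more). Python 3.11.15, numpy 2.4.6 and scipy 1.17.1 were used. The joining was tested on 3000 simulated sites, with 0 wrong. In each list the scores came in multiples of 1 step, within a tolerance of 0.0055. MED1 gained means both treated and neither untreated list, lost the opposite, and constant all 4. Rosi-only and untreated-only mean 1 of a cofactor's 2 lists. Positions count from 1.

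The locus and its lists were chosen with earlier results of these data known. Sites named are those in at least 10 lists, those MED1 gained, lost or constant, the highest of each list and those nearest the borders, and sites outside this rule are marked as picked out after their values were seen. Alternatives were an overlap of 50%, the upper 50% of each list, equal list length, each MED1 list left out, each replicate number alone, other cluster gaps and, after seeing the data, sites joined from a factor's own lists.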

Additional observations from a re-analysis of the deposited data

How the results depend on the processing

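No paired analysis was possible because no result here comes from a test, and the MED1 counts within each replicate number are a description. Of 76 counts recomputed, 51 stayed within 1.5 times. With an overlap of 50%, or with sites joined from a factor's own lists (chosen after seeing the data), every count compared did. In the upper 50% of each list there were 57 sites, MED1 gained 0, CBP rosi-only 0 and untreated-only 4, p300 rosi-only 5 and untreated-only 1, and NCOR rosi-only 7 and untreated-only 5. At equal length MED1 gained was 0, CBP rosi-only 2 and untreated-only 5, and NCOR rosi-only 7 and untreated-only 11. Leaving out 1 MED1 list gave 2 to 8 gained sites, the 8 without rosiglitazone replicate 1, and 4 to 7 lost ones, the 7 without untreated replicate 1 or 2. Within replicate number 1 there were 3 gained, 8 lost and 11 constant sites, and within replicate number 2 there were 9 gained and 9 lost. A cluster gap of 5000 bp gave 35 clusters. The cause of these moves was not tested, beyond fewer peaks or lists by construction. With depth unknown, absence from a list does not show absence of binding.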
